A study of Homo sapiens with 8 samples.

Results

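Many human protein-coding genes have an antisense RNA that is transcribed from the opposite strand at the same place and is named after the coding gene, with the ending -AS1, -AS2 or -AS3. The antisense RNAs described here were the entries of the deposited count table with such an ending and at least 150 reads summed over all 8 libraries. There were 233 of them, 221 ending in -AS1, 10 in -AS2 and 2 in -AS3, out of 1663 entries with such an ending and 61552 genes in all. They were selected on the summed count, so their abundance is a description. Their summed counts ran from 152 to 43226 with a median of 383. Just inside the limit, CIRBP-AS1, CPNE8-AS1 and SEMA3F-AS1 had 152 reads each, and just outside it FAM13A-AS1 and SLFNL1-AS1 had 148 and ASH1L-AS1 had 149. Of the 1430 entries below the limit, 509 had no read in any library.

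MDA-MB-231 is a mesenchymal cell line from a triple-negative breast cancer. MDA231-LM2 (LM2) was derived from it by selection for metastasis to the lung, so MDA-MB-231 is also called parental below. In each line, cells with a control hairpin, labelled as wild type, were set against cells with a short hairpin RNA against TAF7 (shTAF7, labelled as TAF7 knockdown), a subunit of the general transcription factor TFIID. All 4 groups thus carried a hairpin, were grown in the same serum-containing medium and had 2 libraries each, numbered 2 and 3. A single hairpin sequence was used against TAF7, so effects of that sequence on other transcripts cannot be told apart from the loss of TAF7, and the labels do not name separate cultures, which means that p-values here cover no more than the spread between libraries.

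Antisense RNAs can arise from a start site shared with the coding gene, in which case both are transcribed away from one open promoter region, or from a start inside or behind the gene, in which case the transcripts overlap. Some act at their own locus, by recruiting chromatin regulators or by interfering with transcription of the partner, and others act elsewhere in the cell, for instance by binding microRNAs or proteins. Most are low in abundance, are made by RNA polymerase II and carry a poly(A) tail, which is why mRNA libraries contain them. TFIID binds core promoters and helps to place polymerase II there.

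In the GENCODE 29 annotation all 233 identifiers were found, 176 of them classed as antisense, 30 as processed transcripts and 20 as lincRNA. Exons of 168 overlapped exons of the coding gene on the other strand, by a median of 9.38% of the antisense exon bases. Another 47 overlapped the coding gene's span without sharing exon bases, and 16 lay head to head with it, with starts at most 2000 bases apart and no overlap. The strand setting of the counting is not given in the sources used here, so for overlapping pairs reads of the antisense RNA and of the coding gene cannot be told apart in the shared bases. The coding gene had its own entry for 232 of the 233 (DLGAP1-AS1 and DLGAP1-AS2 share one), and both partners had enough reads to be tested in 211 pairs.

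TAF7 had 179 and 185 CPM (reads scaled by library total and TMM factor) in the MDA-MB-231 control libraries and 108 and 105 after knockdown, and 195 and 197 against 142 and 148 in LM2, with no overlap of groups in either line, and the fitted level after knockdown was 58.5% and 74.2% of control. Library totals ran from 17217776 to 20292291 counts, so that 1 read was worth 0.0488 to 0.0583 CPM. The LM2 control libraries stood apart, with reads in 24762 and 24490 genes against 22296 to 23434 in the other libraries, and in 864 and 834 antisense entries against 736 to 788. Every comparison within LM2, the comparison of the controls and the difference in knockdown effect between the lines rest on them. For antisense RNAs named in the comparison of the controls, the value between the shTAF7 libraries is given as well. VIM, CD44, AXL, CAV1 and ITGB1, markers of the mesenchymal state of this line, were all present at 32.2 FPKM (fragments per kilobase and library size) or more in each library, and ESR1, PGR and CDH1 were at most 0.03 FPKM. ERBB2, GATA3 and EPCAM, listed with them as low, reached 6.77, 2.65 and 4.27 FPKM. Summed over 6 fibroblast markers the level was 0.89 to 1.19 FPKM in MDA-MB-231, 3.27 and 3.97 in the LM2 control and 1.57 and 1.80 in LM2 shTAF7 (COL1A1 2.57 and 3.24 in the LM2 control), while COL1A2, DCN and COL3A1 stayed at 0.03 or less. The 4 endothelial markers summed to 0.65 and 0.61 FPKM in the parental control, 1.0 and 0.93 in MDA-MB-231 shTAF7, 1.5 and 1.54 in the LM2 control and 0.94 in each LM2 shTAF7 library. Among them KDR was at 0.06 to 0.12 FPKM in MDA-MB-231 and 0.90 and 1.03 in the LM2 control, PECAM1 reached 0.88 in MDA-MB-231 shTAF7, and CDH5 was at most 0.02. The 4 leukocyte markers summed to at most 0.13, with PTPRC at most 0.03. The part of these differences in the results below was not tested.

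Compared per length, the antisense RNAs were low. Their median level was 0.703 FPKM over all libraries, against 3.84 FPKM for the coding genes they are named after, and 88 reached 1 FPKM. FGD5-AS1, a noncoding RNA described as a microRNA-binding transcript in several tumours, was the most abundant by far with a mean of 48.3 FPKM, followed by THAP9-AS1 at 16.8, SERTAD4-AS1 at 9.54, ADGRD1-AS1 at 8.68 and KRT10-AS1 at 7.62 FPKM. In 60 of 232 pairs the antisense RNA was the more abundant partner. FGD5, a guanine nucleotide exchange factor of endothelial cells, had 2 reads in all 8 libraries while FGD5-AS1 had 43226, and THAP9-AS1 stood 20.2 times above THAP9. At the other end, RTCA-AS1 (0.184 FPKM) and RALY-AS1 (0.225 FPKM) lay far below RTCA (43.2 FPKM), an RNA cyclase, and RALY (33.2 FPKM), an RNA-binding protein of the hnRNP family.

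All 233 together took 0.154% and 0.152% of the reads in the MDA-MB-231 control libraries, 0.141% and 0.151% after knockdown, 0.207% and 0.199% in the LM2 control and 0.178% and 0.174% in LM2 shTAF7. The LM2 control pair was thus highest and did not overlap any other group, and the LM2 shTAF7 pair lay above both MDA-MB-231 groups. FGD5-AS1 alone supplied 11.8% ± 0.0897 of these reads in the parental control (SD, n = 2) and 23.2% ± 0.506 in LM2 shTAF7. Without it the share was 0.135% ± 0.00126 in the parental control and 0.126% ± 0.00753 after knockdown there, 0.165% ± 0.00473 in the LM2 control and 0.135% ± 0.00114 in LM2 shTAF7, so LM2 shTAF7 and the MDA-MB-231 control were then at about the same level. With 2 libraries against 2, an exact permutation test of such a share cannot give a two-sided p below 0.333, and none was used. The antisense entries below the limit of 150 reads showed the same order of groups at the top, with 0.0231% ± 0.0012 in the LM2 control against 0.0150% to 0.0161% on average in the other groups. Divergent transcripts (106 entries ending in -DT with at least 150 reads) were also highest in the LM2 control, at 0.0562% ± 0.000619, and LINC-named genes (132 entries) took 0.0848% ± 0.000131 there against 0.0657% ± 0.00126 in LM2 shTAF7.

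**Figure D1:**
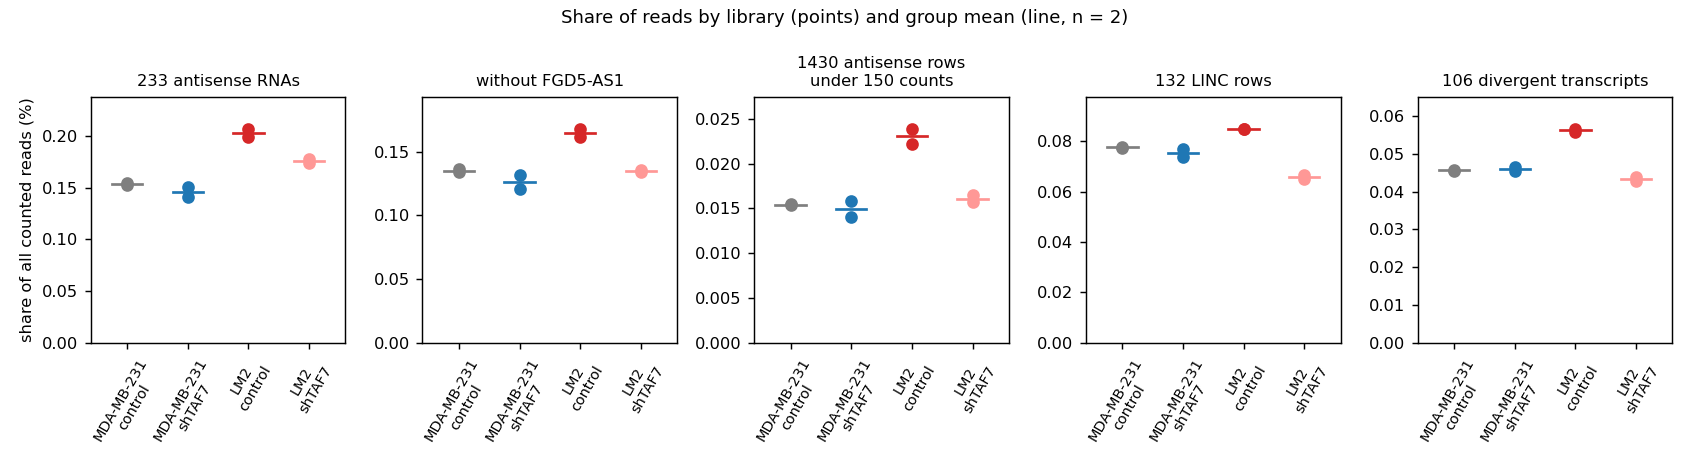
Share of all counted reads (%, vertical axis starting at 0) in each of the 8 libraries, as points by group with the group mean as a line, for the 233 antisense RNAs, the same without FGD5-AS1, the antisense entries under 150 reads, LINC-named genes and divergent transcripts. In all 5 panels the LM2 control points are the highest, and without FGD5-AS1 the LM2 shTAF7 points (0.136% and 0.134%) fall beside those of the MDA-MB-231 control (0.136% and 0.134%).

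The comparison of the control libraries asks how the metastatic derivative differs from the parental line without knockdown. Of the 233 antisense RNAs, 102 were higher and 20 lower in LM2 by edgeR's quasi-likelihood test, whereas of all 15923 genes tested 32.2% were higher and 32.1% lower. The members' shares were 43.8% higher and 8.58% lower, and their median log2 fold change was 0.47, against 0.02 for all genes. Genes of similar abundance leaned the same way to a smaller extent. Among the 3280 tested genes with 150 to 1000 summed reads, 36.9% were higher and 18.5% lower with a median of 0.28, and the 188 antisense RNAs in that range had 42.0% and 7.45% with a median of 0.50. The limit of 150 reads bears on this comparison, since 45 of the antisense RNAs would have stayed below it had all libraries held the reads of their lower line. Of these 45, 22 were called higher and 10 lower, and of the other 188, 80 and 10. The 211 coding partners were split 78 higher to 59 lower with a median of 0.10, divergent transcripts 44 to 15 (median 0.50) and LINC-named genes 50 to 36 (median 0.10).

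Between the shTAF7 libraries of both lines, which include neither control pair, 79 antisense RNAs were higher and 39 lower in LM2, against 30.9% and 31.6% of all genes (62.5% called in either direction), with a median of 0.25. Of the 102 that were higher between the controls, 65 were also higher between the shTAF7 libraries, 33 were not called and 4 were lower. Of the 20 that were lower, 19 were lower again. For all genes, 3591 of the 5134 higher between controls were higher again, and 3781 of the 5115 lower were lower again. Of the 102 and 20 antisense RNAs, 22 and 10 are among the 45 that would have missed the limit at the reads of their lower line. The shTAF7 libraries are part of the summed count, so these repeated calls are not separate support. Among genes with 150 to 1000 reads calls between the shTAF7 libraries were split nearly evenly, with 28.0% higher and 25.9% lower (median 0.05), whereas the antisense RNAs of that range had 28.7% and 13.3% (median 0.22). LINC-named genes were split 37 to 55 and divergent transcripts 20 to 24 there. The antisense RNAs thus leaned toward LM2 in both comparisons, with medians of 0.47 and 0.25. The LM2 control libraries, which enter the first of these, had the greater number of detected genes, and the part of that broader detection in the difference was not tested.

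**Figure D2:**
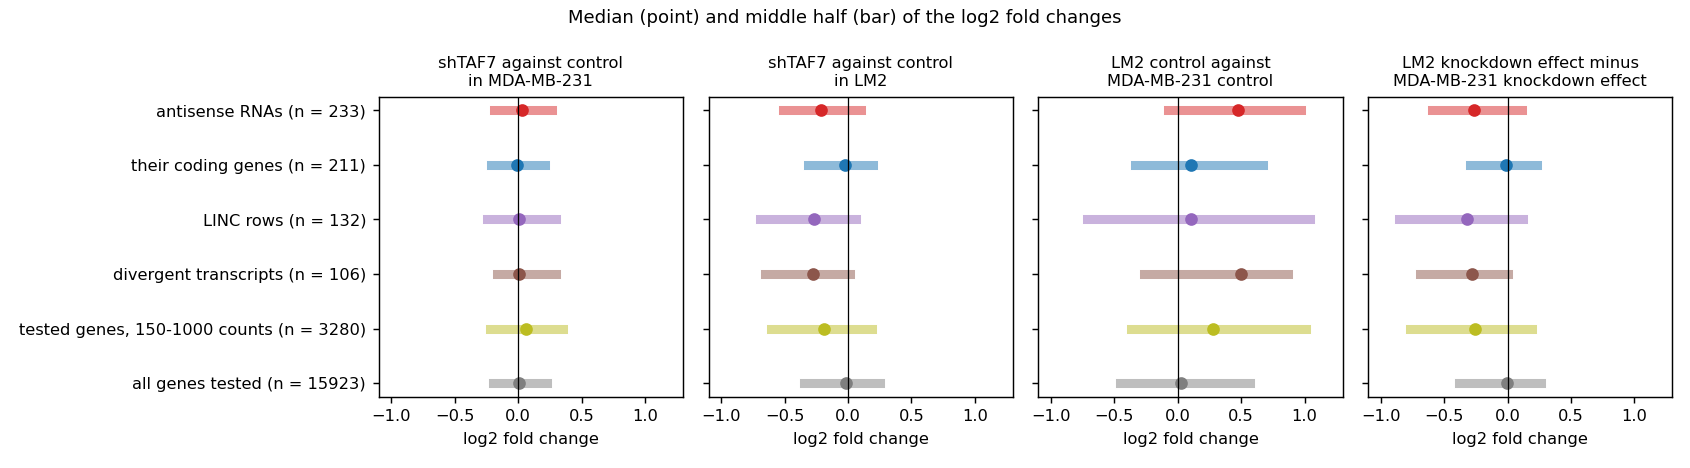
Median (point) and middle 50% (bar) of the log2 fold changes (horizontal axis) of the antisense RNAs, their coding genes, LINC-named genes, divergent transcripts, tested genes with 150 to 1000 reads, and all tested genes, in the 4 comparisons. The antisense RNAs sit right of 0 between the controls (median 0.47) and left of 0 for the knockdown in LM2 (median -0.21), where genes of similar abundance have a median of -0.19.

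The largest differences between the lines were between near absence in one and clear presence in the other. AFAP1-AS1, named after an actin filament-associated protein and described as abundant in several carcinomas, had 2213 and 2100 reads in the parental control, 1319 and 1533 after knockdown in that line, 1 and 4 in the LM2 control and 4 and 2 in LM2 shTAF7. Both LM2 groups were near 0 and the log2 fold change between controls was -9.64 ± 0.18 (SE of the fit, n = 2 libraries per group), while AFAP1 itself was lower in LM2 by a log2 fold change of -1.71 ± 0.16. AFAP1-AS1 reached 150 reads through MDA-MB-231 alone, so its difference between the lines is a description. In bulk RNA, fewer cells with a transcript and less of it per cell cannot be told apart. TLR8-AS1 had 45 and 32 reads in the parental control and 37 and 37 after knockdown, but 1 read over all 4 LM2 libraries. It thus reached 150 reads through MDA-MB-231 alone and had to differ between the lines, so its values are a description, with a ratio between controls of 74.9 (95% exact interval 13.1 to 2998, counting error only). TLR8, an RNA sensor of innate immunity, had 3 reads in total. TMEM132D-AS1 showed the same pattern, with 89 reads over the MDA-MB-231 control pair and 3 over the LM2 control pair (ratio 28.9, interval 9.57 to 143), and 79 and 69 reads in MDA-MB-231 shTAF7 but none in LM2 shTAF7. It too is among the 45 that would not have reached the limit at the level of the lower line.

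ACOXL-AS1 and its coding gene ACOXL, which encodes an acyl-CoA oxidase-like protein, were both lower in LM2. ACOXL-AS1 had 51 and 39 reads in the parental control and 5 and 2 in the LM2 control, and ACOXL had 121 and 111 against 2 and 6 (log2 fold changes -3.60 ± 0.52 and -4.78 ± 0.37). POT1-AS1 (39 and 53 reads against 6 and 5, -3.0 ± 0.44) and DNAH17-AS1 (41 and 30 against 11 and 5, -2.09 ± 0.46) were lower in LM2 with groups apart, whereas POT1, a telomere-binding protein, and DNAH17, an axonemal dynein, were not called (-0.16 ± 0.09 and -0.03 ± 0.30). PCED1B-AS1 had 23 and 26 reads in the parental control and 2 and 3 in the LM2 control (-3.19 ± 0.57), and PCED1B was not called (-0.35 ± 0.27). ACOXL-AS1, POT1-AS1, DNAH17-AS1 and PCED1B-AS1 would have missed the limit on summed reads at their LM2 level, so their differences are a description.

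In the other direction, PGM5P3-AS1 had 1 read over both MDA-MB-231 control libraries and 142 and 136 in the LM2 control (ratio 286, interval 50.9 to 11320), and NUTM2B-AS1 had 1 and 3 reads against 219 and 200. Both are named after members of families of near-identical copies, so the locus of these reads is uncertain. ZNF528-AS1, which starts head to head with the KRAB zinc finger gene ZNF528, rose from 3 and 4 reads to 326 and 333 (6.55 ± 0.27). PGM5P3-AS1, NUTM2B-AS1 and ZNF528-AS1 reached the limit on summed reads through LM2 and would have missed it at their MDA-MB-231 level. Their differences between the lines are therefore a description. RGMB-AS1 rose from 1.87 and 1.29 CPM to 29 and 25.7 CPM (4.10 ± 0.18), and its partner RGMB, a co-receptor of bone morphogenetic proteins, rose from 19.8 and 16.9 to 70.1 and 67.8 CPM (1.91 ± 0.09). ADIRF-AS1 went from 13 and 19 reads to 143 and 115 (3.04 ± 0.28) while ADIRF was listed at 0 in every library. Between the shTAF7 libraries PGM5P3-AS1 had 0 and 3 reads in MDA-MB-231 and 228 and 222 in LM2, and NUTM2B-AS1 had 0 and 1 against 163 and 202. There the differences in AFAP1-AS1 (-8.80), ZNF528-AS1 (3.25), RGMB-AS1 (2.99), ADIRF-AS1 (1.55), ACOXL-AS1 (-4.05), POT1-AS1 (-2.15), DNAH17-AS1 (-2.82) and PCED1B-AS1 (-4.46) had the same direction. The shTAF7 libraries are part of the summed count that chose these RNAs, so the values are not separate support.

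**Figure D3:**
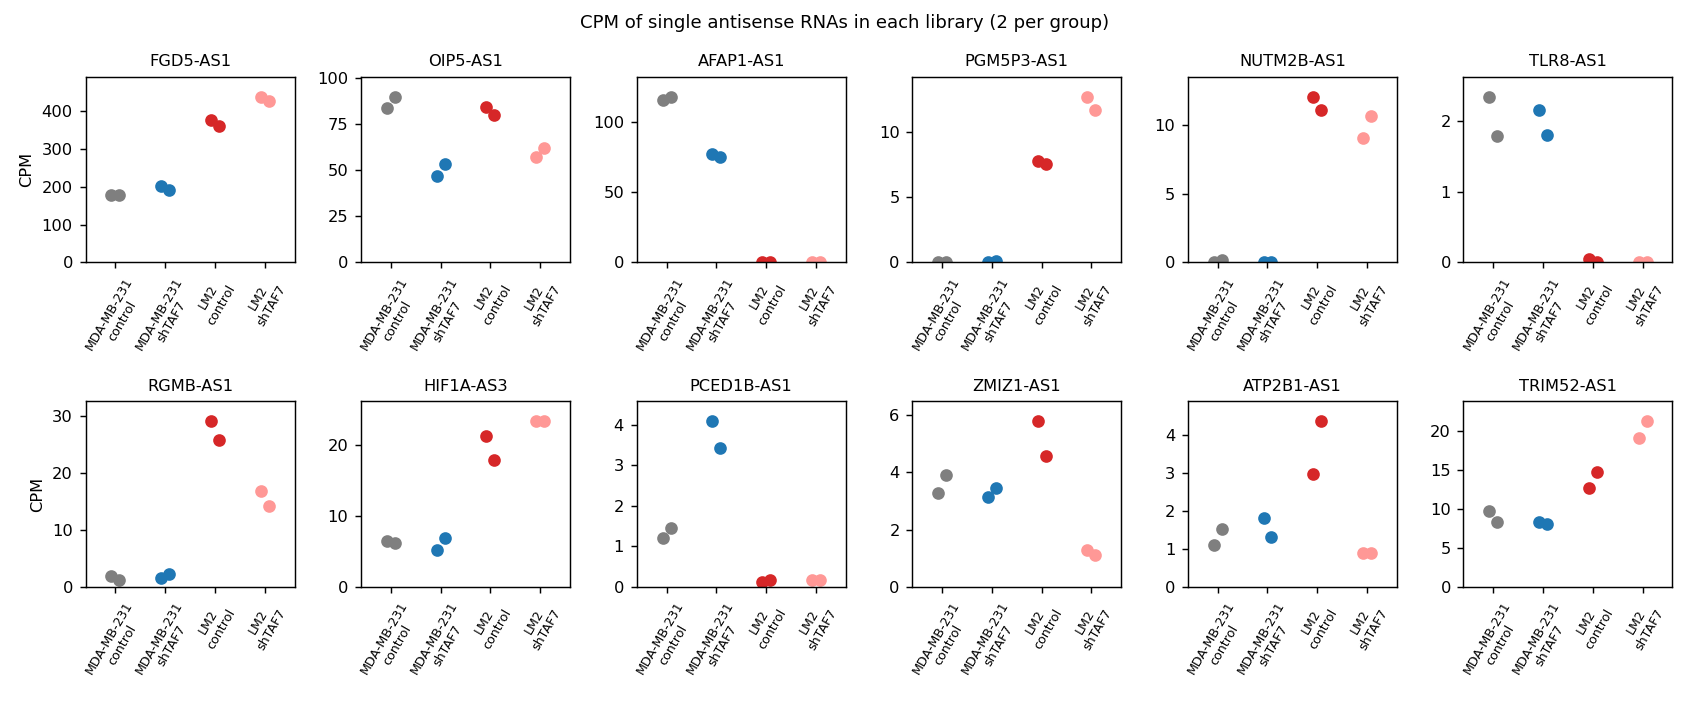
CPM (vertical axes from 0, one scale per panel) of 12 antisense RNAs in the 2 libraries of each group. AFAP1-AS1 and TLR8-AS1 are near 0 in all LM2 libraries, PGM5P3-AS1 and NUTM2B-AS1 near 0 in all MDA-MB-231 libraries, and ZMIZ1-AS1 and ATP2B1-AS1 are lowest in LM2 shTAF7.

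Of the 10 most abundant antisense RNAs by FPKM, 7 were higher in the LM2 control, beside 32.2% of all genes higher and 32.1% lower. Among the 78 antisense RNAs with the most summed reads, 42 were higher and 7 lower. THAP9-AS1 and SERTAD4-AS1 were not called (0.01 ± 0.08 and 0.31 ± 0.15). KRT10-AS1 was lower (-0.34 ± 0.10), a call lost without MDA-MB-231 control replicate 3 (-0.28). FGD5-AS1 had 179 CPM in each MDA-MB-231 control library and 377 and 360 in the LM2 control (1.04 ± 0.07, edgeR adjusted p = 1.9e-18), and 202 and 191 against 437 and 426 in the shTAF7 libraries (1.14). HIF1A-AS3, which overlaps the span but no exon of the gene for the oxygen-regulated factor HIF-1 alpha, had 6.45 and 6.15 CPM in the parental control and 21.2 and 17.8 in the LM2 control (1.63 ± 0.14), whereas HIF1A was not called (-0.12 ± 0.07). PSMA3-AS1, named after a proteasome subunit, rose with its partner (0.92 ± 0.10, and 0.82 ± 0.07 for PSMA3), as did WAC-AS1 (0.77 ± 0.11) and WAC (0.53 ± 0.07). MAPKAPK5-AS1 (0.61 ± 0.11) and ADGRD1-AS1 (0.87 ± 0.14) rose while MAPKAPK5 (0.12 ± 0.08) and ADGRD1 (-0.04 ± 0.12) were not called. Between the shTAF7 libraries HIF1A-AS3 (1.94), TRIM52-AS1 (1.29), PSMA3-AS1 (0.76), WAC-AS1 (0.58), ADGRD1-AS1 (0.61), MAPKAPK5-AS1 (0.86) and SERTAD4-AS1 (0.46) were higher in LM2 by the edgeR test and KRT10-AS1 (-0.31) and THAP9-AS1 (-0.34) lower.

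Other antisense RNAs differed between the controls together with their coding gene. ZEB1-AS1 had 4.21 and 3.30 CPM in the parental control and 10.1 and 11 in the LM2 control (1.48 ± 0.17), and ZEB1, a transcriptional repressor of E-cadherin, went from 53.0 and 54.9 to 112 and 115 CPM (1.07 ± 0.08). VIM-AS1 went from 2.76 and 2.52 to 8.59 and 7.13 CPM (1.57 ± 0.20) beside VIM, the intermediate filament protein vimentin (0.60 ± 0.08). Exons of VIM cover 32.2% of the VIM-AS1 exon bases, and VIM had a mean of 283 FPKM against 2.4 for VIM-AS1. Reads of VIM in the VIM-AS1 count therefore cannot be told apart. HAS2, the hyaluronan synthase, rose from 3.95 and 3.92 to 140 and 131 CPM (5.10 ± 0.10) and HAS2-AS1 from 0.832 and 0.839 to 1.65 and 2.67 CPM (1.36 ± 0.37), though the call of HAS2-AS1 was lost without LM2 control replicate 3 (0.96, edgeR adjusted p = 0.0775). SOCS2-AS1 and SOCS2, a suppressor of cytokine signalling, were both higher (2.68 ± 0.47 and 2.23 ± 0.12), as were SEMA3F-AS1 and SEMA3F, a secreted semaphorin (2.31 ± 0.54 and 5.19 ± 0.19). SOCS2-AS1 and SEMA3F-AS1 would have missed the limit on summed reads at their parental level, so their differences are a description. Between the shTAF7 libraries ZEB1-AS1 and HAS2-AS1 were not called (0.26 and 0.31, edgeR adjusted p = 0.202 and 0.471), although ZEB1 and HAS2 were (1.17 and 4.42). VIM-AS1 (0.71), SOCS2-AS1 (2.11) and SEMA3F-AS1 (1.81) were called there in the same direction.

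Knockdown of TAF7 in MDA-MB-231 changed few antisense RNAs. By the edgeR test 8 were higher and 8 lower, which is 3.43% in each direction, against 12.6% and 12.9% of all genes tested. Their median log2 fold change was 0.03. Of the coding partners, 35 were higher and 35 lower of 211, and of tested genes with 150 to 1000 reads 6.49% were higher and 3.35% lower, beside 2.66% and 1.06% of the antisense RNAs in that range. The counts fell to 4 and 4 without control replicate 3 and to 5 and 5 without shTAF7 replicate 3, and without control replicate 2 the lower ones fell to 4.

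OIP5-AS1, a conserved noncoding RNA also called Cyrano that binds a microRNA and leads to its destruction, stood at 83.4 and 89.6 CPM in the parental control and at 46.7 and 53.5 after knockdown. The groups were well apart and the log2 fold change was -0.78 ± 0.08 (edgeR adjusted p = 1.3e-10). OIP5, a centromere protein gene with 31 to 48 reads per MDA-MB-231 library, was not called (-0.34 ± 0.30). AFAP1-AS1 fell from 115 and 117 to 76.9 and 74.8 CPM (-0.62 ± 0.07, edgeR adjusted p = 1.7e-08), and AFAP1 was not called (-0.31 ± 0.14). KRT10-AS1 (-0.35 ± 0.10), PSMG3-AS1 (-0.93 ± 0.29), TMEM147-AS1 (-0.57 ± 0.19) and TTC28-AS1 (-0.50 ± 0.14) were called in the full set of libraries and lost when shTAF7 replicate 3 was left out, where edgeR gave -0.28, -0.74, -0.50 and -0.31 with adjusted p = 0.116, 0.157, 0.143 and 0.229. The first 3 of these were also lost without control replicate 3 (-0.28, -0.63 and -0.54, edgeR adjusted p = 0.147, 0.277 and 0.113), and TMEM147-AS1 and TTC28-AS1 without control replicate 2 (-0.61 and -0.35, edgeR adjusted p = 0.0706 and 0.208).

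Among those that rose, PCED1B-AS1 had 23 and 26 reads in the control and 70 and 70 after knockdown (1.49 ± 0.31). PCED1B-AS1 reached the limit on summed reads through these shTAF7 libraries and would have missed it at the control level, so its rise is a description. SLCO4A1-AS1 rose from 5.98 and 5.43 to 10.9 and 10.2 CPM (0.88 ± 0.16) together with SLCO4A1, an organic anion transporter, which went from 25.8 and 24.4 to 42.0 and 41.9 CPM (0.74 ± 0.09). FEZF1-AS1 rose from 6.19 and 5.59 to 8.81 and 10.4 CPM (0.71 ± 0.15) with FEZF1, a zinc finger transcription factor of the developing forebrain. FEZF1 had 53 and 73 reads in the control and 100 and 118 after knockdown (0.77 ± 0.21), and it was not called without control replicate 2 (0.50, edgeR adjusted p = 0.186). ZNF528-AS1 had 3 and 4 reads in the control and 20 and 23 after knockdown (2.56 ± 0.48, edgeR adjusted p = 7.2e-05, and 0.21 with adjusted p = 0.0546 by limma on log2(FPKM + 1)). Its partner ZNF528 had 4 and 4 against 8 and 33 and lost its call without shTAF7 replicate 3 (2.29 ± 0.55 with all libraries, 1.09 and edgeR adjusted p = 0.357 without it). FOXD3-AS1, ZSCAN16-AS1, ZEB1-AS1 and SLC25A25-AS1 passed with all libraries (0.57, 0.88, 0.53 and 0.70) and lost the call without control replicate 3 (0.49, 0.93, 0.36 and 0.43 with edgeR adjusted p = 0.131, 0.0807, 0.340 and 0.249). SLC25A25-AS1 had 4.02 and 8.05 CPM in the shTAF7 libraries, and without replicate 3 of that group the value was 0.10 (edgeR adjusted p = 0.863). That replicate also decided ZSCAN16-AS1 (0.83, edgeR adjusted p = 0.122) and ZEB1-AS1 (0.63, edgeR adjusted p = 0.0513), and shTAF7 replicate 2 decided FOXD3-AS1 (0.48, edgeR adjusted p = 0.0889) and ZEB1-AS1 (0.42, edgeR adjusted p = 0.187). ZSCAN16-AS1 was lost without control replicate 2 as well (0.83, edgeR adjusted p = 0.140).

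In LM2, knockdown was accompanied by more decreases than increases. By the edgeR test 16 antisense RNAs were higher and 47 lower, or 6.87% and 20.2%, while 21.8% of all genes were higher and 19.4% lower, and the median log2 fold change was -0.21 against -0.02. Here genes of similar abundance gave nearly the same picture. Of the 3280 genes with 150 to 1000 reads, 6.74% were higher and 20.8% lower with a median of -0.19, and the 2056 protein-coding genes among them had 7.10% and 23.0% with a median of -0.22. The 188 antisense RNAs in that range had 3.72% and 17.6% with a median of -0.25. The coding partners were split evenly, 52 and 52, and LINC-named genes (6 and 34) and divergent transcripts (3 and 21) leaned downward. On the FPKM values, tested with limma and no TMM scaling, 12 were higher and 57 lower (pseudocount 1) or 9 and 51 (pseudocount 0.1), all genes were split 1893 to 4014 or 1830 to 3904 instead of 3478 to 3092, and the median of all genes moved to -0.13 with the latter. Without LM2 shTAF7 replicate 3 the number of lower ones fell to 28.

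ZMIZ1-AS1 fell most. It stood at 5.78 and 4.57 CPM in the LM2 control and at 1.28 and 1.11 after knockdown (-2.11 ± 0.26, edgeR adjusted p = 8.0e-09), and in MDA-MB-231 at 3.28 and 3.92 against 3.15 and 3.46. Its head to head partner ZMIZ1, a transcriptional coactivator related to the PIAS proteins, fell less, from 98.0 and 107 to 68.0 and 65.3 CPM (-0.62 ± 0.07). ATP2B1-AS1 fell from 2.97 and 4.35 to 0.893 and 0.898 CPM (-2.02 ± 0.34) and ATP2B1, a calcium pump of the plasma membrane, from 142 and 141 to 83.8 and 75.6 CPM (-0.83 ± 0.07). VLDLR-AS1 fell from 53 and 60 reads to 16 and 15 (-1.89 ± 0.35) beside VLDLR, the very low density lipoprotein receptor (-0.59 ± 0.11). VLDLR-AS1 would have missed the limit on summed reads had all libraries held its LM2 shTAF7 reads, so its fall is a description. LBX2-AS1 fell from 55 and 66 reads to 22 and 27 (-1.33 ± 0.30), and the homeobox gene LBX2 was not called (-0.49 ± 0.30).

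OIP5-AS1 fell again, from 83.9 and 79.6 to 56.9 and 61.7 CPM (-0.46 ± 0.08, edgeR adjusted p = 3.2e-06). RGMB-AS1 fell from 29 and 25.7 to 16.9 and 14.1 CPM (-0.82 ± 0.12) while RGMB was not called (0.05 ± 0.08), and ADIRF-AS1 fell by 0.96 ± 0.22 on the log2 scale. ZNF528-AS1 fell from 17.9 and 18.6 to 10.4 and 11.5 CPM (-0.74 ± 0.13), whereas ZNF528 went from 13.7 and 14.0 to 12.4 and 9.45 CPM and was not called (-0.34 ± 0.16). ZEB1-AS1 fell from 10.1 and 11 to 6.53 and 6.44 CPM (-0.70 ± 0.16), with ZEB1 not called (-0.16 ± 0.08). RTCA-AS1 and SLC25A21-AS1 passed with all libraries (-1.29 ± 0.34 and -1.11 ± 0.30) but not without LM2 shTAF7 replicate 2 (-0.93 and -0.77, edgeR adjusted p = 0.0535 and 0.0749), and SLC25A21-AS1 was also lost without LM2 control replicate 3 (-0.94, edgeR adjusted p = 0.0627).

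Of the 16 that rose in LM2, FEZF1-AS1 went from 7.43 and 7.69 to 12.8 and 14.7 CPM (0.86 ± 0.14, edgeR adjusted p = 3.1e-06) and FEZF1 from 3.08 and 2.34 to 5.92 and 6.81 CPM (1.23 ± 0.21). GATA2-AS1 rose from 5.01 and 4.29 to 7.98 and 9.66 CPM (0.92 ± 0.19) and GATA2, a transcription factor of blood and endothelial development, from 27.7 and 29 to 44.0 and 47.0 CPM (0.68 ± 0.09). TMPO-AS1 rose from 4.68 and 3.51 to 6.70 and 8.71 CPM (0.91 ± 0.21) with TMPO, a protein of the nuclear lamina (0.32 ± 0.07). TRIM52-AS1 rose from 12.7 and 14.7 to 19.1 and 21.3 CPM (0.56 ± 0.12) while TRIM52 was not called (-0.15 ± 0.15), and MAPKAPK5-AS1 rose by 0.47 ± 0.10 on the log2 scale. FGD5-AS1 rose from 377 and 360 to 437 and 426 CPM (0.23 ± 0.07, edgeR adjusted p = 0.00457), a call that limma on log2(FPKM + 1) did not make (0.10, adjusted p = 0.128). CFAP418-AS1 and HHIP-AS1 had the highest fold changes with groups apart (1.47 ± 0.39 and 1.11 ± 0.35), but neither was called without LM2 control replicate 3 (1.07 and 0.77, edgeR adjusted p = 0.0813 and 0.166). CBLL1-AS1 (1.04 ± 0.43) was lost without LM2 control replicate 2 (0.47, edgeR adjusted p = 0.496) and without LM2 shTAF7 replicate 3 (0.73, edgeR adjusted p = 0.343).

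The interaction term, which includes the LM2 control libraries, asks whether the effect of the hairpin differed between the lines. It was called for 34 antisense RNAs, 8 with a higher and 26 with a lower value in LM2, against 13.9% and 11.9% of all genes, which for 233 RNAs is 3.43% and 11.2%. Among tested genes with 150 to 1000 reads, 2.348% were higher and 13.02% lower, so the lean toward lower values was shared by genes of similar abundance. The median difference of the antisense RNAs was -0.26 (all genes -0.00), and genes with 150 to 1000 reads also had -0.26. With limma on FPKM the split was 4 to 27 (pseudocount 1) or 2 to 23 (pseudocount 0.1), and all genes were split 998 to 2096 or 944 to 2002 instead of 2221 to 1892, the median of all genes moving to -0.10 with the latter. Leaving out 1 library moved the higher ones to 1 (LM2 control replicate 3), 3 (LM2 shTAF7 replicate 3), 4 (either MDA-MB-231 control) or 5 (MDA-MB-231 shTAF7 replicate 2). It moved the lower ones to 14 (MDA-MB-231 control replicate 3 or shTAF7 replicate 3) or 16 (LM2 control replicate 2). ZNF528-AS1 differed most (-3.29 ± 0.49, edgeR adjusted p = 1.1e-06), being higher after knockdown in MDA-MB-231 and lower in LM2. ATP2B1-AS1 (-2.28 ± 0.49), ZMIZ1-AS1 (-2.0 ± 0.36), LBX2-AS1 (-1.64 ± 0.41), ZEB1-AS1 (-1.23 ± 0.25), SLCO4A1-AS1 (-1.20 ± 0.22) and GTF3C2-AS2 (-0.74 ± 0.21) also differed. These 7 kept their call without each library in turn and under each alternative fit that gave an adjusted p. SLCO4A1 differed in step with its antisense RNA (-0.98 ± 0.13). For ZEB1 the interaction was not called (0.10 ± 0.11), and the interaction of ZNF528 (-2.64 ± 0.57) was lost without MDA-MB-231 shTAF7 replicate 3 (-1.43, edgeR adjusted p = 0.194).

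Each antisense RNA was then set beside its coding gene in the 211 pairs tested. Between the controls, where 64.4% of all genes were called, both partners were called in 70 pairs, in the same direction in 60 (51 higher and 9 lower in LM2) and in opposite directions in 10. Across pairs the log2 fold changes had a Pearson coefficient of 0.56 and a Spearman coefficient of 0.55. The knockdown comparisons gave smaller coefficients and fewer joint calls. In MDA-MB-231 (25.6% of all genes called) both partners were called in the same direction in 5 pairs and in opposite directions in 3, with coefficients of 0.26 and 0.09, and in LM2 (41.3% called) in 16 and 10, with 0.18 and 0.17. For the interaction (25.8% called) the numbers were 7 and 2. Partners are read in the same libraries and most share exon bases, so these coefficients are descriptions without a test. Among the 53 pairs that shared no exon bases, joint calls between the controls were in the same direction in 19 and opposite in 3 (coefficients 0.76 and 0.48), and after knockdown in LM2 in 2 and 2. In the 14 head to head pairs, 6 were called in the same direction between the controls and 1 in opposite directions.

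**Figure D4:**
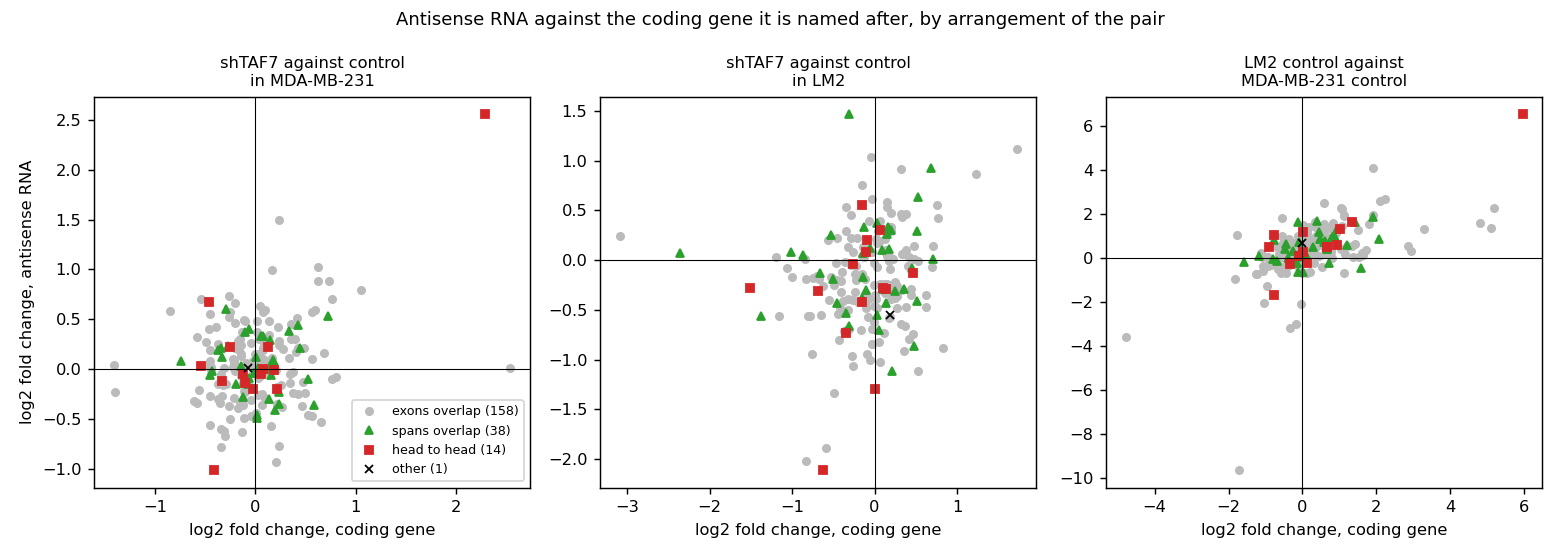
Log2 fold change of each antisense RNA (vertical axis) against that of its coding gene (horizontal axis) for the 211 pairs tested, in 3 comparisons, with marks by the arrangement of the pair. Between the controls the points follow a rising trend (Pearson coefficient 0.56), with the head to head pair of ZNF528 at the upper right. For knockdown in MDA-MB-231 and in LM2 the Pearson coefficients are 0.26 and 0.18 and the Spearman coefficients 0.09 and 0.17.

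Calls in opposite directions were fewer in each comparison. After knockdown in LM2, GTF3C2-AS2 fell from 13.9 and 14.0 to 8.15 and 9.50 CPM (-0.66 ± 0.14) while GTF3C2, a subunit of the RNA polymerase III factor TFIIIC, rose from 41.8 and 42.3 to 54.0 and 54.6 CPM (0.37 ± 0.08). TMEM147-AS1 fell from 8.04 and 8.25 to 5.41 and 4.33 CPM (-0.74 ± 0.17) and TMEM147, a membrane protein of the endoplasmic reticulum, rose (0.46 ± 0.08). PCBP1-AS1 fell (-0.88 ± 0.18) and PCBP1, an RNA-binding protein, rose (0.83 ± 0.24). RALY-AS1 fell (-0.87 ± 0.29) as RALY rose (0.47 ± 0.07), but RALY-AS1 was not called without LM2 control replicate 2 or LM2 shTAF7 replicate 3 (-0.70 and -0.62, edgeR adjusted p = 0.146 and 0.191). Between the controls, HDAC2-AS2 was higher in LM2 (1.02 ± 0.29) while the histone deacetylase gene HDAC2 was lower, at 219 and 220 against 325 and 321 CPM (-0.56 ± 0.07), and HDAC2-AS2 was not called without LM2 control replicate 3 (0.80, edgeR adjusted p = 0.0651). RTCA-AS1, SLC25A21-AS1 and DENND3-AS1 were higher (1.08, 1.05 and 0.82) with RTCA, SLC25A21 and DENND3 lower (-0.76, -1.77 and -0.76), but all 3 antisense calls were lost without MDA-MB-231 control replicate 3 (0.72, 0.78 and 0.62, edgeR adjusted p = 0.0949, 0.0550 and 0.0931). They were lost also without LM2 control replicate 2 for RTCA-AS1 (0.85, edgeR adjusted p = 0.0770) and, for the other two, when LM2 control replicate 3 was left out (0.86 and 0.73, edgeR adjusted p = 0.0535 and 0.0678). Between the shTAF7 libraries RTCA-AS1 and SLC25A21-AS1 had values of the other sign and were not called (-0.16 and -0.09, edgeR adjusted p = 0.725 and 0.825), while RTCA and SLC25A21 were lower again (-0.80 and -1.43). DENND3-AS1 (0.67) and HDAC2-AS2 (1.26) were called higher there, with DENND3 (-0.58) and HDAC2 (-0.57) lower.

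**Figure D5:**
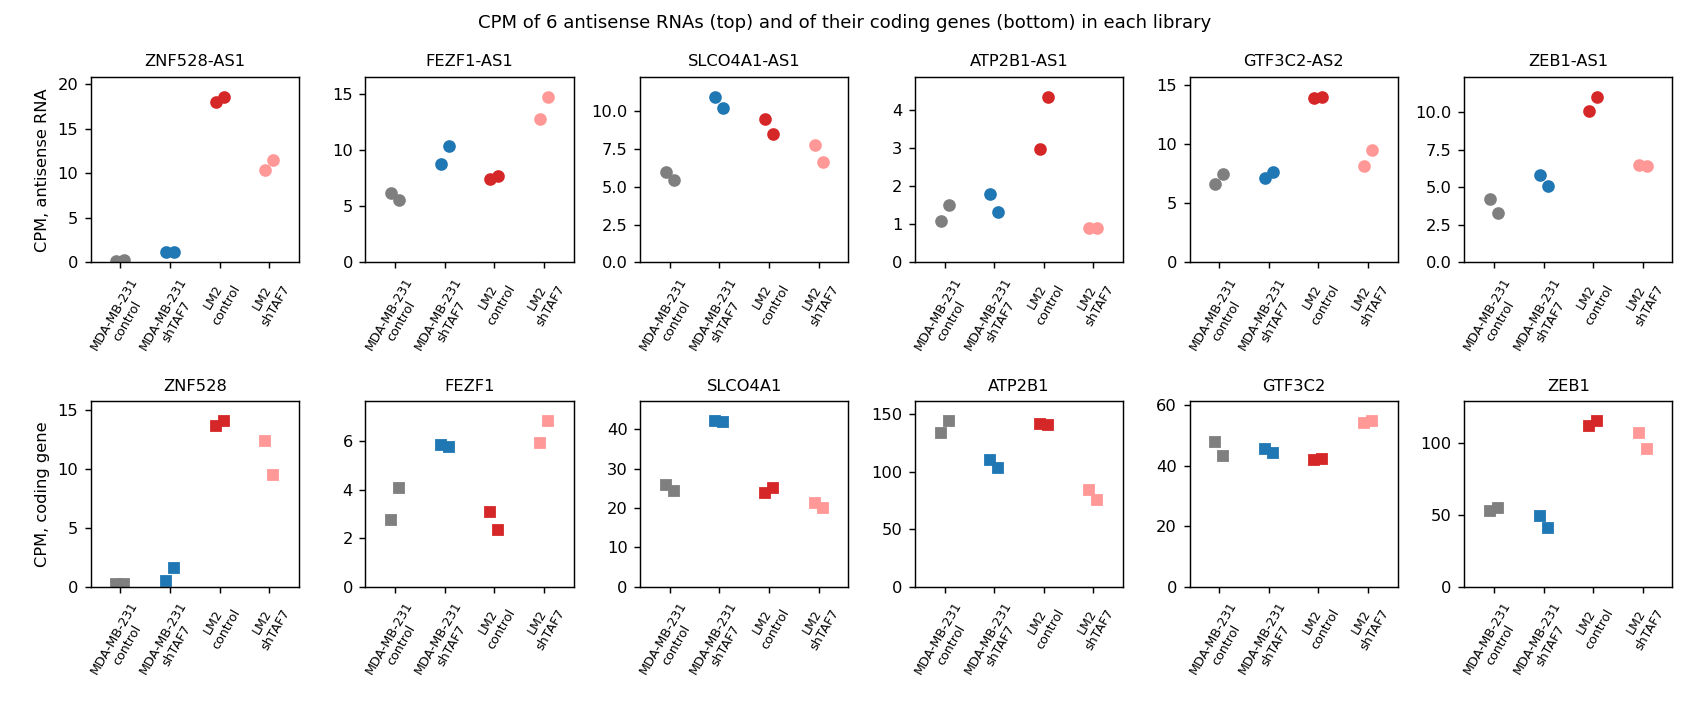
CPM (vertical axes from 0, one scale per panel) in the 2 libraries of each group for 6 antisense RNAs (top) and their coding genes (bottom). Both partners of ZNF528 are near 0 in MDA-MB-231 and high in LM2, both partners of SLCO4A1 are highest in MDA-MB-231 shTAF7, GTF3C2-AS2 and GTF3C2 move in opposite directions after knockdown in LM2, and ZEB1-AS1 falls in LM2 while ZEB1 was not called there.

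Head to head pairs are the arrangement in which one stretch of DNA lies upstream of both transcripts, and 3 of them are shown because their partners did different things: in ZNF528 both rose in LM2, in TRIM52 both rose in LM2 but only the antisense RNA passed the test after knockdown there, and in RTCA the calls between controls were opposite, though not those between the shTAF7 libraries. The stretches are RefSeq sequence of build GRCh38.p14, read on the strand of the antisense RNA. Capitals mark the bases between both annotated starts and lower case the first 50 bases of the antisense RNA. ZNF528-AS1 is chr19:52397708-52397848 on the minus strand, TRIM52-AS1 is chr5:181261144-181261261 on the plus strand and RTCA-AS1 is chr1:100266125-100266215 on the minus strand.
ZNF528-AS1: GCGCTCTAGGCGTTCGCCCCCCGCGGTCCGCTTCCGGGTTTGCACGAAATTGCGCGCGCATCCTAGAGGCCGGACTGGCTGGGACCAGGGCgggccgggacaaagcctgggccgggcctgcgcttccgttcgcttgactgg
TRIM52-AS1: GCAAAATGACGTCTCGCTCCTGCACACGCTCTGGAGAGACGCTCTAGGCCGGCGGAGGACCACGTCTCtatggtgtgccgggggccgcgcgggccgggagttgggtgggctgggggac
RTCA-AS1: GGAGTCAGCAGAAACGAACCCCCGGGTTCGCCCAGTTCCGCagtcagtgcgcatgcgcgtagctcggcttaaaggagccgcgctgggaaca
The starts lie 91, 68 and 41 bases apart in that order, with 12, 7 and 4 CG dinucleotides between them, and none of 4 motifs was found on either strand between the starts: the TATA box (TATAAA), the GC box (GGGCGG), the CCAAT box (those 5 letters) and the cAMP response element (TGACGTCA). That search ended at the antisense start, and in the ZNF528-AS1 stretch the letters GGGCGG run across this start. Promoter windows of 300 bases (250 before and 50 after a start) were listed for 181 of the 233 antisense RNAs, and in 52 pairs the windows of both partners shared bases. Either strand held TATAAA in 7.46% of the 228 windows of these RNAs against 11.5% of all 35116 windows listed, GGGCGG in 58.3% against 45%, CCAAT in 28.9% against 34.6% and TGACGTCA in 3.95% against 1.85%. In the 312 windows of the coding genes the shares were 8.97%, 57.1%, 34.3% and 3.53% in the same order. The median number of CG dinucleotides was 23 against 14, and the coding genes had 24. These matches describe letters and not binding.

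Antisense RNAs with a described role in cells were looked up by name, and 18 of 30 had at least 150 reads. Besides those above, SBF2-AS1 was higher in the LM2 control (4.37 and 4.08 CPM against 8.64 and 7.69, 0.95 ± 0.17) and HLA-F-AS1 likewise (1.33 ± 0.38) with HLA-F, a nonclassical MHC class I gene (3.29 ± 0.34). In the shTAF7 libraries SBF2-AS1 was again higher in LM2 (0.60), HLA-F-AS1 was not called (0.22, edgeR adjusted p = 0.628) and HLA-F was (2.96). NR2F1-AS1, FOXP4-AS1 and TTN-AS1 were called in none of the 4 edgeR comparisons, with log2 fold changes between controls of 0.03 ± 0.10, -0.18 ± 0.34 and -0.68 ± 0.37, although NR2F1, an orphan nuclear receptor, was lower in LM2 (-0.92 ± 0.08) and higher after knockdown in both lines (0.48 ± 0.08 and 0.34 ± 0.09). LOXL1-AS1 was also uncalled in these 4, while LOXL1, a lysyl oxidase-like enzyme of the matrix, was higher after knockdown in LM2 (0.71 ± 0.15). When the shTAF7 libraries of both lines were compared, LOXL1-AS1 was called higher in LM2 (0.38, edgeR adjusted p = 0.000556) and TTN-AS1 lower (-0.96, edgeR adjusted p = 0.0247). MCM3AP-AS1 fell in LM2 shTAF7 with all libraries (-0.51 ± 0.18) but not without LM2 shTAF7 replicate 3 (-0.23, edgeR adjusted p = 0.440) or either LM2 control library (-0.48 and -0.53, edgeR adjusted p = 0.103 and 0.0730), and MCM3AP fell in both lines (-0.58 ± 0.09 and -0.37 ± 0.10).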

How the data were processed

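Libraries of mRNA-enriched RNA from 4 groups of 2 were used, with columns matched to samples by title. The deposited counts are whole reads per gene, made by the authors with STAR 2.7.10a and build hg19 named in the submitters' processing notes; no source used here names the read counter, annotation or strand setting. The deposited FPKM values are per length and library size, by the authors. Counts were fitted with edgeR 4.0.16 (R 4.3.3; TMM scaling, filterByExpr, 1 mean per group over all 8 libraries, 4 residual degrees of freedom, quasi-likelihood test, Benjamini-Hochberg over 15923 genes, called at adjusted p under 0.05), and the script was checked on simulated counts. Log2 fold changes are given with the fit's standard error. DESeq2 1.42.0, limma 3.58.1 on log2(FPKM + 1) and log2(FPKM + 0.1), RLE scaling, no filter, 4 libraries per fit, a replicate block, a fold minimum, 300 reads, pairs without exon overlap and each library left out were alternatives. The comparison of shTAF7 libraries between lines, the range of 150 to 1000 reads and the count of antisense RNAs below the limit at their lower line's reads were added after the data were seen. Members and lists were chosen with earlier results of these data known. Named genes are the 10 most abundant members by FPKM, in each comparison the 6 highest and 6 lowest called with at least 1 CPM and groups apart, the 4 pairs per direction with the largest smaller change, the neighbours of the limit, RNAs with a described role, and all their coding genes; not all are printed. Arrangements come from GENCODE 29 (GRCh38), matched by identifier, with no hg19 coordinates used. Intervals cover counting error only. The 2 libraries of each group differed by more than sampling noise (chi-square per degree of freedom 2.34 to 7.24). A few listed cell type markers are not reported here.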

Additional observations from a re-analysis of the deposited data

Results flagged for a closer look

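The effect of TAF7 knockdown differed between LM2 and MDA-MB-231 by edgeR's interaction term for 34 of the 233 antisense RNAs (8 higher and 26 lower in LM2), or 14.6%, against 25.8% of all genes. Genes of similar abundance were also called less often and leaned the same way. Of the 3280 tested genes with 150 to 1000 reads, 15.37% were called, 2.348% higher and 13.02% lower. The 188 antisense RNAs in that range had 10.11%, 1.596% and 8.511%. The 25 of the 34 that the naming rule covers, 8 higher and 17 lower, are given here. Differences below are log2 values, LM2 minus MDA-MB-231. The lower ones were ZNF528-AS1 (-3.29), ATP2B1-AS1 (-2.28), ZMIZ1-AS1 (-2.0), RHOXF1-AS1 (-1.71), LBX2-AS1 (-1.64), ADIRF-AS1 (-1.48), ZEB1-AS1 (-1.23), SLCO4A1-AS1 (-1.20), RGMB-AS1 (-1.11), CD27-AS1 (-0.91), SLC25A25-AS1 (-0.90), VIM-AS1 (-0.87), PCBP1-AS1 (-0.80), GTF3C2-AS2 (-0.74), FOXD3-AS1 (-0.63), NOP14-AS1 (-0.42) and THAP9-AS1 (-0.35). The higher ones were IDI2-AS1 (1.75), CFAP418-AS1 (1.51), TMPO-AS1 (0.92), TRIM52-AS1 (0.69), MRPL20-AS1 (0.65), ZBED5-AS1 (0.60), TTC28-AS1 (0.54) and OIP5-AS1 (0.32).

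Only 7 of the 25 kept the call without each library in turn, namely ATP2B1-AS1, GTF3C2-AS2, LBX2-AS1, SLCO4A1-AS1, ZEB1-AS1, ZMIZ1-AS1 and ZNF528-AS1. RGMB-AS1 was lost without MDA-MB-231 control replicate 3 (-0.86, edgeR adjusted p = 0.0589) or shTAF7 replicate 3 (-0.80, edgeR adjusted p = 0.144), and TRIM52-AS1 without MDA-MB-231 control replicate 2 (0.59, edgeR adjusted p = 0.0541). IDI2-AS1 had 25 and 6 reads in the LM2 control libraries, and without replicate 3 of that group its difference was 1.10 (edgeR adjusted p = 0.250).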

How the results depend on the processing

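Values below run in the order antisense RNAs higher, antisense RNAs lower, pairs called in the same direction, pairs called in opposite directions, and name those that moved by over 1.5 times. For knockdown in MDA-MB-231 (8, 8, 5 and 3), DESeq2 gave 4, 4, 3 and 0, a minimum log2 fold change of 1 gave 2, 0, 1 and 0, and antisense RNAs without exon overlap with the coding gene gave 1, 0, 1 and 0. There limma gave 5 lower, 2 same and 0 opposite with pseudocount 1 and 3, 3 and 0 with 0.1, and opposite pairs were 1 without the low-count filter and 1 with the 4 libraries alone. For knockdown in LM2 (16, 47, 16 and 10), DESeq2 gave 29 lower, 9 same and 4 opposite, the fold minimum 3, 14, 1 and 0, and no exon overlap 5, 11, 2 and 2. There limma gave 29 same and 5 opposite with pseudocount 1, and 9 higher and 5 opposite with 0.1. For the control libraries of both lines (102, 20, 60 and 10), the fold minimum gave 56, 12, 22 and 1, no exon overlap 33, 4, 19 and 3, a minimum of 300 reads 11 lower and 38 same, and the shTAF7 libraries 39 lower. For the interaction (8, 26, 7 and 2), DESeq2 gave 3, 15, 4 and 1, the fold minimum 2, 13, 1 and 0, no exon overlap 2, 6, 2 and 0, limma 4 higher and 0 opposite with pseudocount 1 and 2 and 0 with 0.1, and RLE scaling and no filter 1 opposite pair each. The subsets and the fold minimum count fewer genes by construction, and for the other settings the cause was not tested. Leaving out each library gave ranges of 4 to 11, 4 to 11, 2 to 7 and 0 to 4 for knockdown of the parental line, 11 to 18, 28 to 48, 11 to 18 and 4 to 11 for that of LM2, 81 to 103, 16 to 23, 50 to 62 and 6 to 12 between the controls, and 1 to 8, 14 to 28, 3 to 7 and 0 to 3 for the interaction. Opposite pairs fell to 6 without MDA-MB-231 control replicate 3 or LM2 control replicate 2 between the controls.

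Same-numbered libraries did not deviate together (correlations -0.0618 to 0.0214 across 15923 genes). With the replicate block 8 antisense RNAs were higher and 9 lower after knockdown of the parental line, 16 and 47 after that of LM2, 102 and 20 between the controls and 8 and 26 for the interaction, and 133 of 135 single calls held. Of those 135, 58 were lost under at least 1 setting and no value took the opposite sign. DESeq2 gave 109 adjusted p values among the antisense RNAs as NA. With 2 libraries a group the standard error of the log2 fold change between controls was 0.07 for FGD5-AS1 (43226 reads) and 0.54 for SEMA3F-AS1 (152 reads).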
